A study of Drosophila melanogaster with 17 samples.

Results

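The JAK-STAT pathway of Drosophila melanogaster was followed through 8 genes that carry its signal from ligand to feedback: the ligands upd1, upd2 and upd3, the receptor dome, the short receptor et, the kinase hop, the transcription factor Stat92E and the inhibitor Socs36E. The genes were chosen by name, and all 8 were found by FlyBase identifier in both count tables, among 18354 features of the gut table and 23882 features of the head table. Polyadenylated RNA had been sequenced from mated males kept 20 to a vial at 25 °C and 60% humidity in cycles of 12 h light and 12 h dark, and dissected at ZT8, which is 8 h after lights on. Guts came from 3 groups of day 40 flies, with 3 libraries each: w1118, a white mutant that serves as the control strain, orco2, a mutant of the co-receptor that odorant receptors need, and per01, which lacks function of the clock gene period. Heads came from w1118 and orco2 flies at day 3 and at day 40, with 2 libraries in each of the 4 groups. Each mutation was present in every cell of the fly, and how many flies were pooled per library, and whether the strains share a genetic background, is not given in the sources used here. Nothing states that libraries of a group came from separate cohorts, so each p-value reflects library-to-library spread that may be of technical origin.

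The pathway starts when an Unpaired ligand binds the receptor Domeless, which activates the Janus kinase Hopscotch, and this kinase phosphorylates Stat92E so that it enters the nucleus and switches on targets. Socs36E is both a target and a brake, since its product dampens the receptor complex, and for that reason its transcript is widely used as a readout of pathway activity. In the fly midgut, stressed or dying enterocytes release upd3 above all, and the signal drives intestinal stem cells to divide and their daughters to mature, while in adult flies the same pathway controls stress peptides of the Turandot family and complement-like Tep genes in fat body and haemocytes.

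Of the 8 genes, 6 lie on chromosome X (BDGP6 annotation, the assembly on which dm6 is based). The 3 ligand genes form a cluster with upd2 (FBgn0030904) at X, 18240654 to 18243284 on the minus strand, upd3 (FBgn0053542) at X, 18277233 to 18284596 on the plus strand, and upd1 (FBgn0004956) at X, 18305354 to 18309291 on the minus strand. A gap of 33948 bases parts upd2 from upd3, and 20757 bases part upd3 from upd1. The genes of both receptors are direct neighbours on the minus strand, with et (FBgn0031055) at X, 19672312 to 19675891 and dome (FBgn0043903) at X, 19676061 to 19683518, and only 169 bases lie between them. The kinase gene hop (FBgn0004864) lies at X, 11360930 to 11368098, Stat92E (FBgn0016917) at 3R, 20535323 to 20552311, and Socs36E (FBgn0041184) at 2L, 18138675 to 18152417, all on the minus strand. An overlap of 42 exonic bases between et and the opposite-strand gene Zw is the only exonic overlap of the 8 genes with another gene, and because the strand setting of the counting is not given in the sources used here, reads in that stretch cannot be assigned to either gene.

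Total counts per library ran from 25792664 to 41693684 in guts and from 27082849 to 33932201 in heads. Among counts from 1 to 20, between 60.3% and 75.5% per library were even numbers, so low counts may hold fewer independent fragments than they show. Levels are given as CPM, the count of a gene per 1e+06 counts of its library after TMM scaling within a tissue. A gene rose, fell or changed where its adjusted p was under 0.05 in edgeR's quasi-likelihood test, with Benjamini-Hochberg adjustment over all genes tested in that tissue. Replicate 3 of the orco2 guts held the middle of the 3 CPM values for 74.2% of 9537 genes, against 12.8% to 38.9% for the other gut libraries. It also lay closest to a mixture of its companions, with a median squared deviation of 2.12 counting variances from a blend of 48% of replicate 1 with replicate 2, where the other libraries lay at 11.4 to 64.7. The reason was not tested, and the orco2 gut results of the 8 JAK-STAT genes are therefore given with and without that library. In heads, orco2 day 3 replicate 1 and w1118 day 40 replicate 2 held 3655 and 2410 counts of the gut trypsin gene alphaTry, which had 0 counts in the other 6 head libraries. Their part in the head results was not tested. Some head fold changes of the JAK-STAT genes are also given without both libraries, an alternative chosen after the data were seen. That fit leaves a single library of day 3 orco2 and of day 40 w1118.

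In day 40 guts, the ligand upd3 and the feedback inhibitor Socs36E were lower in both mutants than in w1118, by 5.32-fold to 12.5-fold, and these were the differences that passed in every fit tried. The ligand upd2, the receptor dome and the kinase hop also fell in orco2, and hop fell in per01. Stat92E, which encodes the transcription factor of the pathway, did not pass in either mutant in edgeR, while DESeq2 called it in orco2. In all, 5 of the 8 genes fell in orco2 and 0 rose, where 26.6% of the 13453 genes tested were called in this comparison and 15.1% were called lower. In per01, 3 of 8 fell and 0 rose, where 19% of genes were called and 9.33% were called lower. Both comparisons share the 3 w1118 libraries. Bulk RNA cannot tell fewer cells of a type from less RNA per cell, and this holds for every value here.

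The ligand upd3, which enterocytes produce on damage, was read at 10.4, 10.2 and 5.33 CPM in the w1118 guts. It was read at 0.892, 0.964 and 0.349 CPM in the orco2 guts and at 1.11, 0.406 and 0.512 CPM in the per01 guts. The 3 control libraries thus stood above all 6 mutant libraries with no overlap, and the mutants' own ranges overlapped each other. The log2 fold change was -3.55 ± 0.60 (SE, adjusted p = 0.00771) in orco2, an 11.7-fold lower level. In per01 it was -3.65 ± 0.61 (adjusted p = 0.00873), a 12.5-fold lower level. Only 173 of the 13453 genes tested had a lower fold change than upd3 in orco2, and 222 in per01. Without orco2 replicate 3 the values were -3.21 (adjusted p = 0.0456) and -3.65 (adjusted p = 0.0176).

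The ligand upd2, known in the fat body as a signal of the fed state, was read at 96, 127 and 59 counts in the w1118 guts, which is 2.13, 3.36 and 2.06 CPM. The orco2 libraries held 8, 2 and 6 counts and the per01 libraries 0, 0 and 10, so every mutant library lay below every control library. The transcript fell in orco2 (-4.39 ± 1.34, adjusted p = 0.0433). In per01 the fold change was -4.04 ± 1.35 and did not pass (95% interval -7.11 to -0.96, adjusted p = 0.0697), though it passed with DESeq2 (adjusted p = 0.00342) and limma-voom (adjusted p = 0.0112). Its size rests on replicate 3, which holds all 10 per01 counts: without it both remaining libraries are at 0 and the difference passed (adjusted p = 0.0097). The orco2 call is fragile: it was lost without any 1 of the 6 libraries compared, with adjusted p from 0.0638 (without w1118 replicate 1) to 0.148 (without orco2 replicate 2), 0.07 without w1118 replicate 2, 0.0649 without w1118 replicate 3, 0.105 without orco2 replicate 1 and 0.132 without orco2 replicate 3.

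The ligand upd1, which visceral muscle and the testis hub are known to make, ran the other way in orco2. It was read at 1.73, 4.52 and 0.593 CPM in w1118, at 4.55, 11.3 and 7.73 CPM in orco2, and at 3.52, 0.507 and 0.466 CPM in per01. The orco2 libraries all lay above the w1118 libraries, though the lowest orco2 value was close to the highest w1118 value, and the per01 libraries overlapped the controls. No comparison of upd1 passed: the fold change was 1.78 ± 0.95 (95% interval -0.39 to 3.95, adjusted p = 0.168) in orco2 and -0.59 ± 0.94 (adjusted p = 0.737) in per01. Without orco2 replicate 3 the orco2 value was 1.80 (adjusted p = 0.267). Summed CPM of 10 testis and accessory gland genes were 239.7 to 651.4 in w1118, 3695 to 5992 in orco2 and 375.6 to 9271 in per01. That sum includes Acp36DE, with 110505 to 148947 counts in the orco2 libraries, where Mst87F had 20475 to 26950. In each mutant 1 of the 10 genes rose and 0 fell, where 26.6% of all genes were called in orco2 and 19% in per01. In orco2 9 of the 10 were higher than in w1118 without overlap, where 35.4% of all genes were. For aly, a regulator of spermatocyte genes, the w1118 libraries held 57, 105 and 4 counts, those of orco2 297, 417 and 395, and those of per01 162, 0 and 16. In each group the library with the highest upd1 level also had the most counts of aly and of the sperm gene Mst87F. For the germline gene bgcn this held in w1118 and per01 but not in orco2, where replicate 3 had the most (955 against 886 in replicate 2). The accessory gland gene Acp36DE ran otherwise, with 84 counts in w1118 replicate 2, where upd1 was highest in that group, and 146375 in per01 replicate 2, where upd1 was at 0.507 CPM. The part of testis RNA in the upd1 values was not tested.

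**Figure D1:**
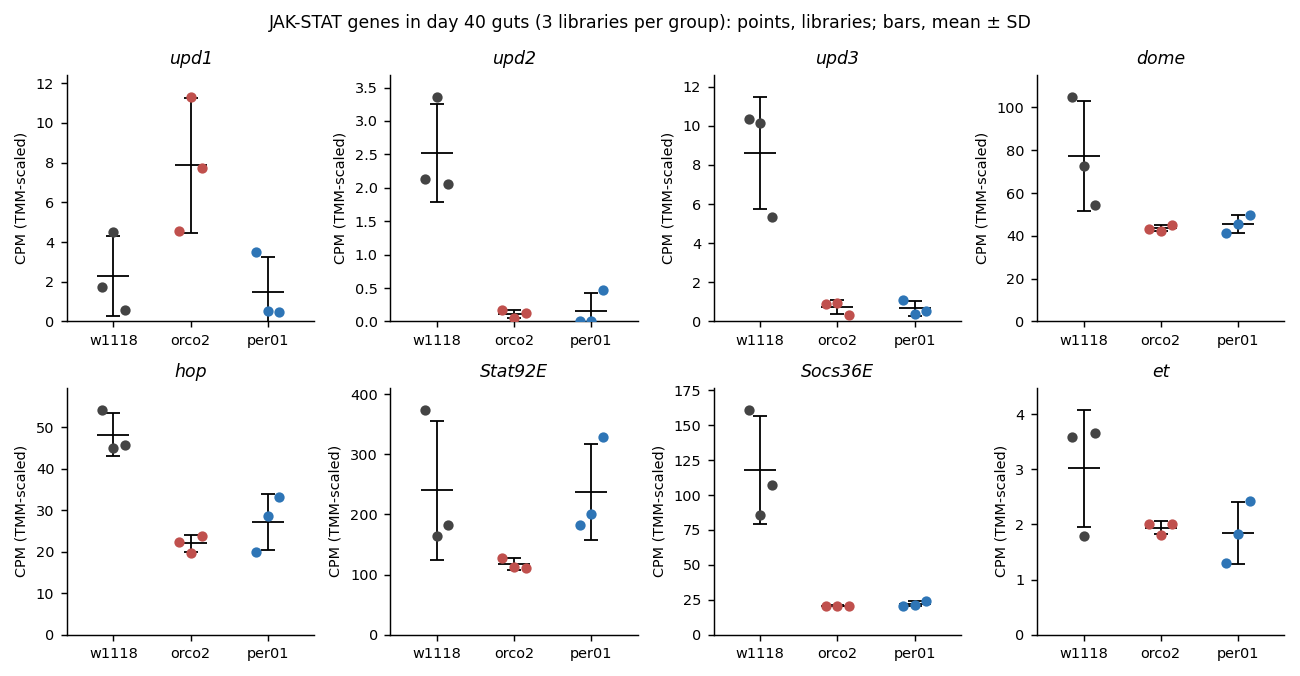
Levels of the 8 JAK-STAT genes in each day 40 gut library (vertical axes, TMM-scaled CPM, linear from 0), with the 3 libraries of w1118, orco2 and per01 as points and the group mean ± SD as bars (cut off at 0 where the SD exceeds the mean). The upd2, upd3, hop and Socs36E points of both mutants lie below all 3 w1118 points, while upd1 is highest in orco2 and Stat92E is lowest there.

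The receptor gene dome was read at 104.9, 72.6 and 54.2 CPM in w1118 guts. The orco2 libraries held 43.2, 42.2 and 45.2 CPM and the per01 libraries 41.3, 45.5 and 49.8 CPM. All 6 mutant libraries lay in a narrow band under the lowest control, while the controls themselves spread widely. The transcript fell in orco2 by 0.83 ± 0.25 on the log2 scale (adjusted p = 0.0424), and its fold change in per01 was -0.76 ± 0.25 (95% interval -1.33 to -0.19, adjusted p = 0.0665). The orco2 call was lost without w1118 replicate 1 (-0.53, adjusted p = 0.0851) or 2 (0.0639), without orco2 replicate 1 (0.107), 2 (0.131) or 3 (0.119), and without per01 replicate 2 (0.0594).

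The kinase gene hop was read at 54.1, 44.9 and 45.7 CPM in w1118 guts. In orco2 its levels were 22.4, 19.7 and 23.8 CPM, while per01 gave 19.8, 28.5 and 33.3 CPM. Both mutants lay below the controls without overlap, and hop was the only gene besides upd3 and Socs36E to pass in both mutants. It fell by 1.13 ± 0.24 (log2, adjusted p = 0.0141) in orco2 and by 0.83 ± 0.24 (adjusted p = 0.0436) in per01. The orco2 call was lost without any 1 orco2 library (adjusted p = 0.0526, 0.067 and 0.0602 without replicates 1, 2 and 3). The per01 call held only without per01 replicate 3 (adjusted p = 0.0379), and without the other libraries in turn it ran from 0.0584 (without per01 replicate 1) to 0.14 (without w1118 replicate 3). The other 6 gave 0.0819 and 0.0914 without w1118 replicates 1 and 2, 0.0783, 0.0723 and 0.0839 without orco2 replicates 1, 2 and 3, and 0.108 without per01 replicate 2.

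Stat92E, the transcription factor, was low in orco2 alone among the 3 groups. It was read at 373.2, 164.7 and 181.7 CPM in w1118 guts, at 128.2, 112.8 and 110.8 CPM in orco2 and at 182.1, 200.9 and 328.7 CPM in per01. The orco2 libraries lay below all others, and the per01 libraries ran through the range of the controls. The fold change was -1.03 ± 0.36 in orco2 against w1118 (95% interval -1.86 to -0.20, adjusted p = 0.0634) and -0.02 ± 0.36 in per01 against w1118 (95% interval -0.84 to 0.81, adjusted p = 0.985). In per01 against orco2 it was 1.02 ± 0.36 (adjusted p = 0.0907), so none of the 3 passed. In orco2 against w1118 it passed with DESeq2 (-1.03, adjusted p = 0.0288), with only the libraries compared (-1.20, adjusted p = 0.0468) and without per01 replicate 3 (adjusted p = 0.0499), and without w1118 replicate 1, the highest library, it was -0.55 (adjusted p = 0.161). Without orco2 replicate 3 it was -0.99 (adjusted p = 0.165).

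Socs36E, the feedback inhibitor, gave the most uniform mutant values. It was read at 160.7, 85.8 and 107.5 CPM in w1118 guts. The level in orco2 was 20.8, 20.5 and 20.9 CPM, and that in per01 was 20.7, 21.5 and 24.3 CPM. Every control library was at least 3 times as high as every mutant library, and the 6 mutant libraries spanned less than 4 CPM. The transcript fell in orco2 by 2.51 ± 0.26 (log2, adjusted p = 0.00284), which is 5.69-fold, and in per01 by 2.41 ± 0.26 (adjusted p = 0.00313), which is 5.32-fold. Between per01 and orco2 the difference was 0.10 ± 0.24, with a 95% interval from -0.46 to 0.65. Without orco2 replicate 3 the values were -2.51 (adjusted p = 0.0306) and -2.41 (adjusted p = 0.012).

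The gene et, whose product is a short receptor that blocks signalling by dome, was read at 3.59, 1.80 and 3.66 CPM in w1118 guts, at 2.01, 1.80 and 2.01 CPM in orco2 and at 1.29, 1.83 and 2.42 CPM in per01. The groups overlapped, and neither the fold change in orco2 (-0.63 ± 0.44, adjusted p = 0.27) nor that in per01 (-0.71 ± 0.44, adjusted p = 0.298) passed. Without orco2 replicate 3 these values were -0.65 (adjusted p = 0.42) and -0.71 (adjusted p = 0.405). The gene dome, its neighbour 169 bases away, thus passed in orco2 where et did not, and the difference between these 2 changes was not tested.

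Without orco2 replicate 3, upd3 and Socs36E were the 2 genes of 8 that still passed in each mutant, where 4.29% of all genes passed in orco2 and 9.54% in per01. CPM of orco2 and w1118 did not overlap for 6 genes that were lower (upd2, upd3, dome, hop, Stat92E and Socs36E) and for upd1, which was higher. The same held for 26.1% and 35.4% of all genes tested, so separation of 3 libraries from 3 was common in these guts. In per01 against w1118, 5 genes were lower without overlap (upd2, upd3, dome, hop and Socs36E), against 16.6% of all genes. In per01 against orco2, 0 of 8 genes passed in edgeR, where 5.4% of all genes did, and 5221 of the 13453 had an unadjusted p under 0.05. DESeq2 called 1 of 8, upd1 (-2.42, adjusted p = 0.0378), where it called 34% of all genes. In edgeR the upd1 value was -2.37 ± 0.98 (adjusted p = 0.115), and it passed without per01 replicate 1, the per01 library with the highest upd1 level (-4.01, adjusted p = 0.0161).

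**Figure D2:**
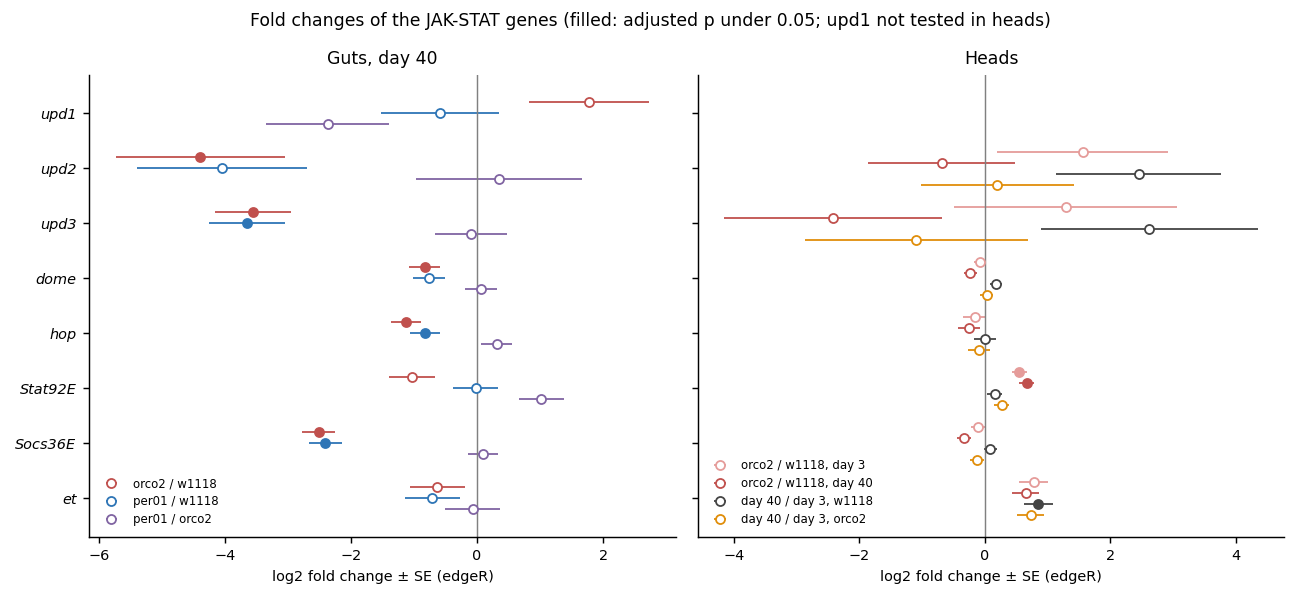
Fold changes of the 8 genes (log2 ± SE, horizontal axes) in the 3 gut comparisons (left) and the 4 head comparisons (right), with filled points for adjusted p under 0.05. In guts upd3, hop and Socs36E are filled on the negative side for both mutants, and in heads the filled points are those of Stat92E in orco2 and of et with age in w1118.

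Other brakes and helpers of the pathway were followed as a list of 10 regulators, all of them tested. In orco2 7 fell, 0 rose and 3 did not pass, with a median log2 fold change of -0.95 where the median of all genes was 0.06. In per01 5 fell, 0 rose and 5 did not pass, with a median of -0.84 where that of all genes was 0.00. Of all genes tested, 15.1% were called lower in orco2 and 9.33% in per01. The chromatin protein BRWD3, a positive regulator of the pathway, fell by 1.39 ± 0.19 in orco2 (adjusted p = 0.00406) and by 1.37 ± 0.19 in per01 (adjusted p = 0.00483). The transcriptional repressor ken, which competes with Stat92E at a subset of targets, fell by 0.96 ± 0.19 (adjusted p = 0.0128) and by 1.40 ± 0.20 (adjusted p = 0.00503). The regulator apt, which limits STAT activity in the ovary, fell by 1.14 ± 0.24 (adjusted p = 0.0148) and by 1.30 ± 0.24 (adjusted p = 0.0118). The phosphatase Ptp61F, which dephosphorylates hop and Stat92E, fell by 0.67 ± 0.17 (adjusted p = 0.0245) and by 0.89 ± 0.17 (adjusted p = 0.0124), and the endosomal sorting gene Hrs fell by 1.17 ± 0.22 (adjusted p = 0.0105) and by 0.95 ± 0.22 (adjusted p = 0.0226). In orco2 Socs16D (-1.45 ± 0.31, adjusted p = 0.0144) and Stam (-0.94 ± 0.25, adjusted p = 0.0286) fell too, while in per01 their values were -0.79 (adjusted p = 0.103) and -0.59 (adjusted p = 0.133). The count of 7 in orco2 was 3, 1 and 1 without orco2 replicates 1, 2 and 3 and 6 to 8 without any other library. Calls over all genes, in either direction, moved from 26.6% to 9.72%, 6.29% and 4.29% without orco2 replicates 1, 2 and 3. The count of 5 in per01 was 3 without w1118 replicate 3 and 4 to 6 otherwise.

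Genes known as targets of the pathway did not share one direction. Of 14 targets, 10 were tested in guts. In orco2 2 rose and 2 fell, with a median of 0.87, and in per01 0 rose and 1 fell, with a median of -0.62. Of all genes tested, 26.6% were called in orco2 and 19% in per01. The complement-like genes Tep2 and Tep4 fell in orco2 (-0.97 ± 0.26, adjusted p = 0.0322, and -1.07 ± 0.26, adjusted p = 0.022), and Tep2 fell in per01 (-1.94 ± 0.27, adjusted p = 0.00503). The Turandot stress peptide gene TotM rose in orco2 from 1.47 ± 0.765 to 11.8 ± 5.71 CPM (SD, n = 3, adjusted p = 0.0351) and stood at 0.713 ± 0.815 CPM in per01, lower than in orco2 (adjusted p = 0.0435). Of 9 fits that each left out 1 library, 3 kept this TotM difference between the mutants. The gene chinmo, a target in the somatic stem cells of the testis, rose in orco2 from 10.2 ± 6.47 to 45.4 ± 7.85 CPM (adjusted p = 0.0471). The 2 that rose in orco2 were 0 without w1118 replicate 3 or any 1 orco2 library, and 1 without w1118 replicate 1 or per01 replicate 2. The 2 that fell were 0 without w1118 replicate 2 or any 1 orco2 library. Without orco2 replicates 1, 2 and 3, 9.72%, 6.29% and 4.29% of all genes were called. The orco2 guts are also those with the high counts of testis genes, and the part of testis RNA in the chinmo value was not tested.

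Of 28 listed genes that induce upd3 or act with it in midgut renewal 26 were found, and esg and Dl were not analysed here. In orco2 12 fell, 0 rose and 14 did not pass (median -0.86), and in per01 8 fell, 0 rose and 18 did not pass (median -0.45). Of all genes tested, 15.1% were called lower in orco2 and 9.33% in per01. Without overlap of the groups, 17 were lower and 2 higher in orco2, where 26.1% of all genes were lower and 35.4% higher. The stress-responsive transcription factor Atf3 fell by 2.23 ± 0.23 in orco2 (adjusted p = 0.00284) and by 1.06 ± 0.22 in per01 (adjusted p = 0.0169), and it was higher in per01 than in orco2 by 1.17 ± 0.22 (adjusted p = 0.0332). The gene kay, which encodes Fos, a nuclear end point of JNK signalling, fell by 2.43 ± 0.31 (adjusted p = 0.00372) and by 1.53 ± 0.30 (adjusted p = 0.0138). The JNK phosphatase gene puc, itself induced by JNK signalling, fell by 2.05 ± 0.28 in orco2 (adjusted p = 0.00406) and by 1.07 ± 0.27 in per01 (adjusted p = 0.03). The growth factor receptor gene Egfr fell by 1.44 ± 0.19 (adjusted p = 0.004) and by 1.17 ± 0.19 (adjusted p = 0.00816), and the matrix protease gene Mmp1 fell by 2.08 ± 0.29 (adjusted p = 0.00442) and by 1.26 ± 0.28 (adjusted p = 0.0204). The cyclin gene CycE was lower in per01 than in orco2 by 2.41 ± 0.49 (adjusted p = 0.0375), though it passed in neither mutant against w1118. The differences of Atf3 and CycE between the mutants did not pass without any 1 of the orco2 libraries or without per01 replicate 2 or 3, and that of CycE also not without w1118 replicate 2. The count of 12 in orco2 ran from 8 to 14 when single libraries were left out, where 4.29% to 40.6% of all genes were called. For per01 against w1118 the same fits called 7.11% to 21.3% of all genes. The count of 8 in per01 was 7 without w1118 replicate 1 or per01 replicate 3, and 2, 3, 4, 5, 4, 5 and 1 without w1118 replicates 2 and 3, orco2 replicates 1, 2 and 3, and per01 replicates 1 and 2.

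**Figure D3:**
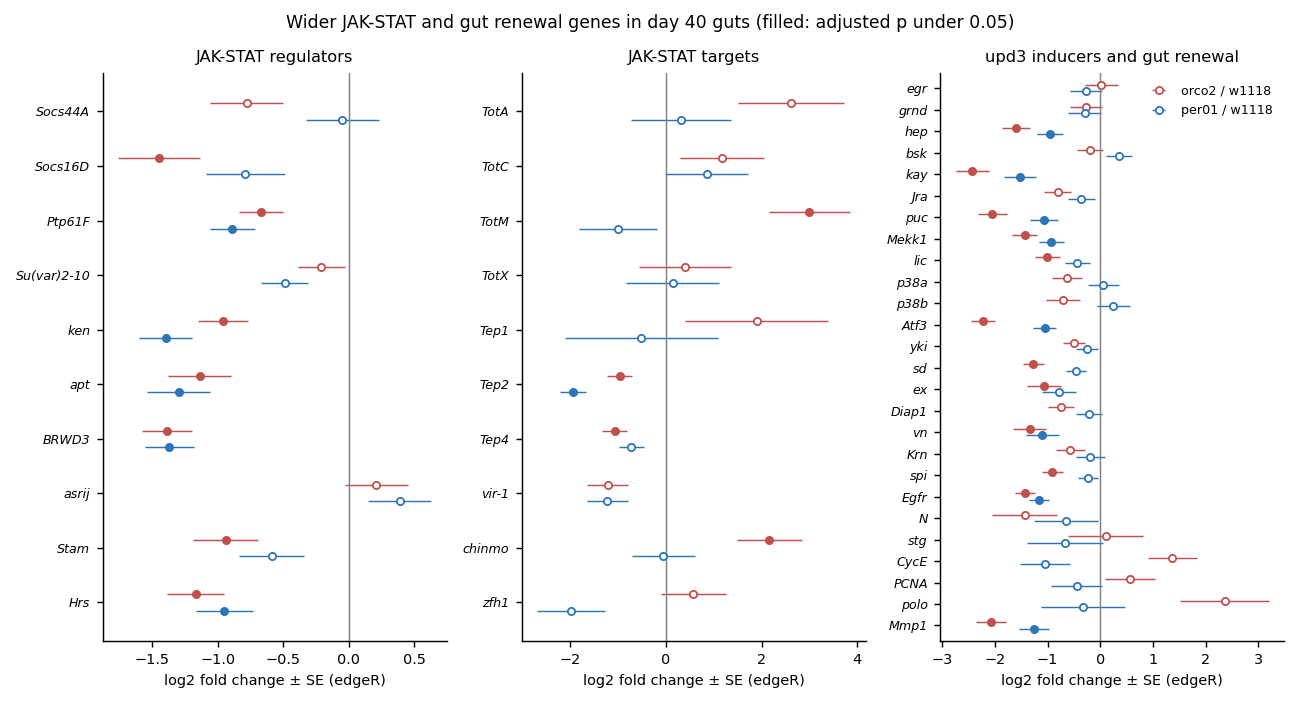
Fold changes (log2 ± SE, horizontal axes) of the tested pathway regulators, pathway targets and upd3 inducers and gut renewal genes in day 40 guts, for orco2 against w1118 and per01 against w1118, with filled points for adjusted p under 0.05. Filled points of the regulators and of the inducers all lie below 0, while the targets have filled points on both sides in orco2.

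Marker transcripts of several cell types also differed in level between these groups. Summed CPM of 4 stem cell and enteroblast markers (Sox21a, klu, spdo and E(spl)mbeta-HLH) were 61.3 to 95.3 in w1118, 11.7 to 14.8 in orco2 and 16.7 to 42.7 in per01. Those of 7 muscle genes were 4345 to 6399, 1589 to 2026 and 2658 to 3687. Those of 10 enterocyte genes ran the other way in per01, at 6427 to 17790 in w1118, 13190 to 25640 in orco2 and 76710 to 146800 in per01. Stem cell and muscle markers were thus lowest in the mutants, where upd3, hop and Socs36E were low too, and every one of these markers had counts in each gut library. Of the 4 stem cell markers 2 fell in orco2 and 1 in per01, and of the 7 muscle genes 5 and 3 fell. Of all genes tested, 15.1% were called lower in orco2 and 9.33% in per01. Sums of neuron, photoreceptor and glial genes were also lower in orco2 guts than in w1118 guts, without overlap. The part of these cell types in the JAK-STAT values was not tested. Summed CPM of 8 haemocyte genes, a blood cell type that can also produce ligands of the pathway, were 58.2 to 80.2 in w1118, 95.1 to 105.5 in orco2 and 49.0 to 71.2 in per01. In orco2 2 of the 7 tested haemocyte genes rose and 1 fell, where 26.6% of all genes tested were called. The part of haemocytes in the ligand values was not tested.

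Levels per exonic length set the 8 genes against each other within a group. In w1118 guts, CPM per 1000 exonic bases were 46.0 ± 22.2 for Stat92E, 33.7 ± 11 for Socs36E, 15.8 ± 5.26 for dome, 9.54 ± 1.01 for hop and 3.88 ± 1.28 for upd3 (SD, n = 3), followed by upd2 at 1.27, et at 1.25 and upd1 at 0.73. Stat92E and Socs36E overlapped, as did upd2, et and upd1, and each other neighbour in this order was separate. In orco2 guts the order changed: dome (8.93 ± 0.307) stood above Socs36E (5.92 ± 0.0648) without overlap, and upd1 (2.52 ± 1.08) was the highest ligand while upd3 was at 0.331. In per01 guts dome (9.34 ± 0.873) also stood above Socs36E (6.33 ± 0.534), Socs36E overlapped hop (5.38 ± 1.35), and the levels of et, upd1, upd3 and upd2 were all under 0.8 on average and overlapped from each to the next.

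**Figure D4:**
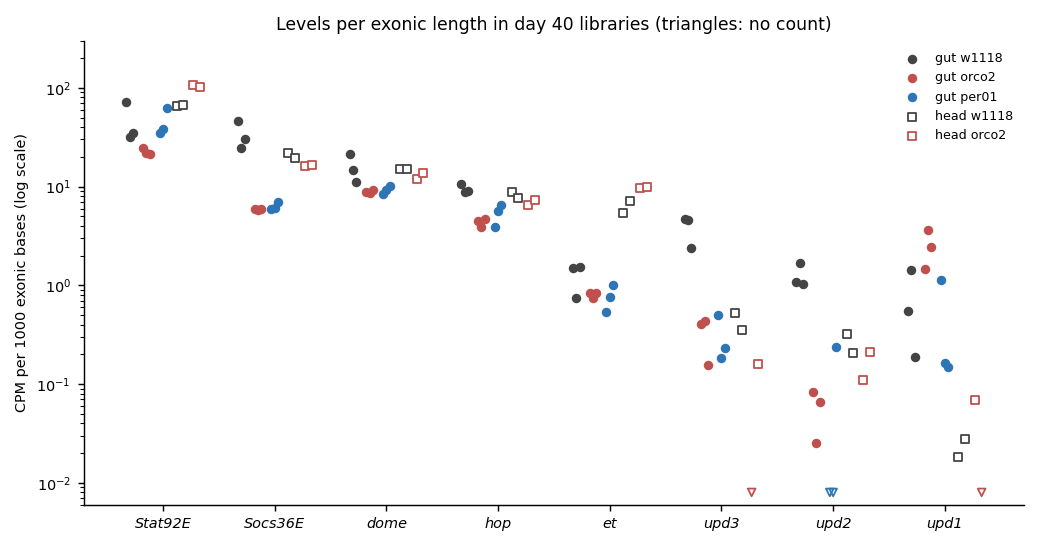
Levels per exonic length of the 8 genes in every day 40 library (vertical axis, CPM per 1000 exonic bases, log scale), with filled circles for guts, open squares for heads, colour for genotype and triangles at the lower edge for libraries with no count. Gut and head tables were scaled separately, so positions are compared within a tissue. In w1118 guts upd3 and Socs36E stand higher than in the other gut groups, and in heads et stands far above the 3 ligands.

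In heads the ligands were barely detected. Per library, 0 to 6 counts were read for upd1, 0 to 22 for upd2 and 0 to 40 for upd3, and upd1 did not pass the filter on low counts, so 7 of the 8 genes were tested. In heads 1 gene passed in each of 3 comparisons. Stat92E rose in orco2 at day 3, where 7.28% of the 12243 genes tested were called, and at day 40, where 13% were called, and et rose with age in w1118, where 15.8% were called. With age in orco2 0 of 7 genes passed in edgeR, where 24.2% of all genes did, and DESeq2 called 1, which was et, and 29.7% of all genes.

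Stat92E was read at 292.1 and 324.4 CPM in day 3 w1118 heads and at 416.6 and 489.2 CPM in day 3 orco2 heads. At day 40 the values were 338.2 and 348.3 CPM in w1118 and 562.2 and 529.9 CPM in orco2. The orco2 heads lay above the w1118 heads at both ages with no overlap. The rise was 0.55 ± 0.12 on the log2 scale at day 3 (adjusted p = 0.03) and 0.67 ± 0.12 at day 40 (adjusted p = 0.0118). With age it differed by 0.16 ± 0.12 in w1118 (adjusted p = 0.424) and by 0.27 ± 0.12 in orco2 (adjusted p = 0.136). Without both libraries that held gut trypsin transcripts, which leaves a single library in 1 group of each comparison, the differences were 0.67 and 0.69. The day 3 call was lost without either w1118 day 3 library (adjusted p = 0.284 and 0.144 without replicates 1 and 2), either w1118 day 40 library (0.0656 and 0.0633) and either orco2 day 40 library (0.0775 and 0.0758). The day 40 call was lost without either w1118 day 40 library (adjusted p = 0.113 and 0.0598) and either orco2 day 40 library (0.0882 and 0.0599). Summed CPM of 10 fat body genes, a tissue that lies in the head capsule and responds to the pathway, stood higher in the same libraries: 2003 to 2530 in w1118 against 5922 to 8278 in orco2 at day 3, and 6718 to 7938 against 14300 to 17060 at day 40. The part of fat body RNA in the Stat92E values was not tested.

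The short receptor et was read at 8.39 and 8.22 CPM in day 3 w1118 heads and at 11.2 and 17.3 CPM in day 3 orco2 heads. At day 40 it was read at 12.9 and 17.1 CPM in w1118 and at 23.5 and 23.7 CPM in orco2. Both day 40 groups lay above the day 3 group of their genotype, and both orco2 groups above w1118 of their age. The rise with age passed in w1118 (0.85 ± 0.23, adjusted p = 0.0408), and the fold change was 0.73 ± 0.22 in orco2 (adjusted p = 0.0504). The difference between these age effects was -0.13 ± 0.32 (95% interval -0.86 to 0.61, adjusted p = 0.926). In orco2 against w1118 the fold change was 0.78 ± 0.23 at day 3 (adjusted p = 0.0853) and 0.65 ± 0.22 at day 40 (adjusted p = 0.0981). Without both libraries that held gut trypsin transcripts, the values were 1.06 and 0.87 for orco2 at day 3 and day 40. They were 0.64 and 0.45 for age in w1118 and orco2. Each of these values rests on a group with a single library left. The call with age in w1118 was lost without either w1118 day 3 library (adjusted p = 0.198 and 0.199), either w1118 day 40 library (0.0606 and 0.254) and either orco2 day 40 library (0.0918 and 0.0823).

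The receptor dome was read at 64.8 and 64.7 CPM in w1118 and at 60.5 and 61.8 CPM in orco2 at day 3, and at 74.1 and 72.8 against 58.3 and 66.6 CPM at day 40. The orco2 values lay a little below w1118 at both ages, and the fold changes were -0.08 ± 0.10 (adjusted p = 0.696) and -0.23 ± 0.10 (adjusted p = 0.177). The kinase hop was read at 42.5 and 40.5 CPM in w1118 and at 43.9 and 30.7 CPM in orco2 at day 3, and at 44.6 and 38.3 against 33.0 and 36.9 CPM at day 40. The groups of hop overlapped at day 3 and were separate at day 40 (-0.25 ± 0.18, adjusted p = 0.4). Without both libraries that held gut trypsin transcripts, hop was at -0.44 at day 3 and -0.35 at day 40, and dome at -0.07 and -0.24. A single library is then left of day 3 orco2 and of day 40 w1118.

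The inhibitor Socs36E was read at 67.6 and 69.1 CPM in w1118 and at 68.1 and 58.6 CPM in orco2 at day 3. At day 40 it was read at 76.9 and 68.4 CPM in w1118 and at 57.3 and 58.4 CPM in orco2. The groups overlapped at day 3, and at day 40 both orco2 heads lay below both w1118 heads. The fold change was -0.11 ± 0.11 (adjusted p = 0.632) at day 3 and -0.33 ± 0.11 (95% interval -0.59 to -0.06, adjusted p = 0.102) at day 40. Without both libraries that held gut trypsin transcripts, which leaves a single w1118 library at day 40, the day 40 value was -0.41. With age, Socs36E differed by 0.09 ± 0.11 in w1118 (adjusted p = 0.65) and by -0.13 ± 0.11 in orco2 (adjusted p = 0.439).

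**Figure D5:**
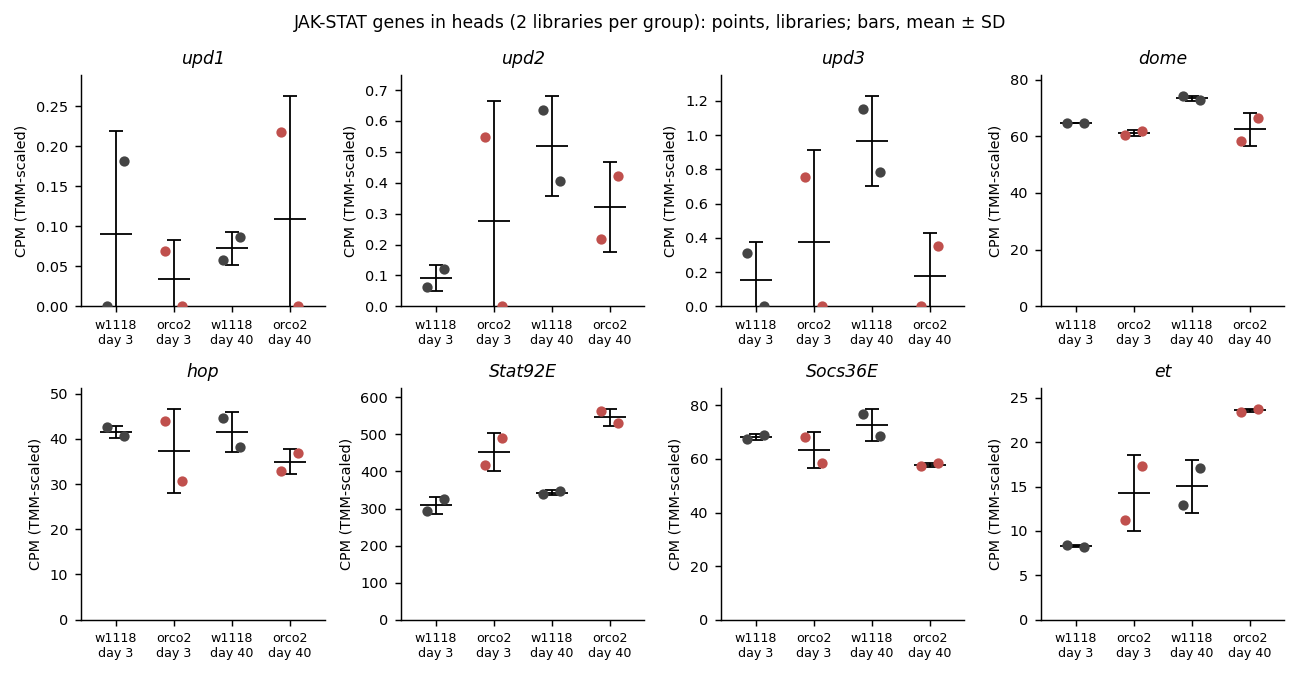
Levels of the 8 JAK-STAT genes in each head library (vertical axes, TMM-scaled CPM, linear from 0), with the 2 libraries of each of the 4 groups as points and the group mean ± SD as bars (cut off at 0 where the SD exceeds the mean). Stat92E and et stand higher in orco2 than in w1118 at both ages, and the ligands upd1, upd2 and upd3 stay under 1.2 CPM in every library.

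Among the ligands in heads, upd3 was read at 10 and 0 counts in w1118 and 22 and 0 in orco2 at day 3, and at 40 and 27 counts in w1118 and 0 and 10 in orco2 at day 40. The day 40 w1118 heads held the most, and the 22 counts in day 3 orco2 are those of replicate 1, one of the libraries that held gut trypsin transcripts. For upd2 the counts were 2 and 4 against 16 and 0 at day 3 and 22 and 14 against 6 and 12 at day 40, and the 16 are again those of orco2 day 3 replicate 1. Without both libraries that held gut trypsin transcripts the day 3 fold changes turned from 1.56 to -4.54 for upd2 and from 1.29 to -5.27 for upd3. In that fit the single orco2 library left has 0 counts of either gene. No comparison of upd2 or upd3 in heads passed in the fit of all libraries, with SE of 1.17 to 1.78 on the log2 scale in the comparisons of 2 groups, which are wide. With only the libraries compared, upd2 passed with age in w1118 (2.44, adjusted p = 0.0423), where 3816 genes were called. For upd1 the counts were 0 and 6, 2 and 0, 2 and 3, and 6 and 0 in the 4 groups.

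In the test of whether age acted differently in orco2 than in w1118, 0 of 7 genes passed in edgeR, where 1 gene of all tested did (0.00817%) and 1215 of all tested had an unadjusted p under 0.05. DESeq2 called 186 genes (1.52%) in that test and 0 of the 7. None of the 10 regulators passed in a head comparison with edgeR. Of the targets, Tep4 rose in orco2 heads at day 3 (1.43 ± 0.23, adjusted p = 0.00913) and day 40 (1.19 ± 0.23, adjusted p = 0.0146) and with age in w1118 (1.22 ± 0.23, adjusted p = 0.011) and orco2 (0.97 ± 0.23, adjusted p = 0.018). Tep2 rose in orco2 at day 40 (1.00 ± 0.22, adjusted p = 0.0245) and with age in w1118 (1.21 ± 0.22, adjusted p = 0.00976) and orco2 (1.33 ± 0.22, adjusted p = 0.00509). These are the same 2 complement-like genes that fell in orco2 guts, where both calls were lost without any 1 orco2 library. Of the 8 head fits that each left out 1 library, 2 kept the Tep2 call in orco2 at day 40. For Tep4 in orco2, 6 kept the day 3 call and 5 the day 40 call. The Turandot gene TotA rose in orco2 at day 3 (1.98 ± 0.48, adjusted p = 0.0496) and with age in w1118 (2.79 ± 0.50, adjusted p = 0.00916), and chinmo fell with age in orco2 (-1.13 ± 0.14, adjusted p = 0.00189). The day 3 call of TotA was kept in 4 of those 8 fits. With age, 5 of 10 tested targets rose and 0 fell in w1118 heads, and 3 rose and 1 fell in orco2. Of all genes, 15.8% were called with age in w1118 and 24.2% in orco2. The count of 5 was 0 and 1 without w1118 day 3 replicates 1 and 2, 1 without w1118 day 40 replicate 2, 8 without either orco2 day 3 library, and 4 or 5 without any other library. Of the 10 fat body genes, 9 rose and 0 fell with age in w1118 (median 2.35) and 6 rose and 0 fell in orco2 (median 1.61). In orco2 against w1118, 5 of them rose and 0 fell at day 3, and 5 rose and 1 fell at day 40. The part of fat body RNA in the target values was not tested. Of the 10 tested targets, 2 were higher in orco2 and 0 lower at day 3, where 7.28% of all genes were called. At day 40, 2 of these targets were higher and 1 lower, where 13% of all genes were called. Of the 26 inducers and renewal genes, 1 rose and 1 fell in orco2 at day 3, 1 rose and 2 fell at day 40, 1 rose and 1 fell with age in w1118, and 5 rose and 1 fell with age in orco2, where 7.28%, 13%, 15.8% and 24.2% of all genes were called in the same order. When single libraries were left out, the number that fell ran from 1 to 6 at day 3 and from 0 to 10 at day 40, both highest without orco2 day 3 replicate 1, and the number that rose with age in orco2 ran from 1 to 6. Egfr was among those that rose in all 4 comparisons, by 0.56 to 0.85 on the log2 scale. Its calls in orco2 lay near the threshold (adjusted p = 0.0431 at day 3 and 0.0457 at day 40). Of the 8 fits that each left out 1 library, 1 kept the day 3 call and 2 the day 40 call. Mmp1 fell in orco2 at day 3 (-0.99 ± 0.10, adjusted p = 0.00152) and day 40 (-0.62 ± 0.10, adjusted p = 0.00822), and 4 of those 8 fits kept the day 40 call. With age in orco2, Mmp1 rose by 0.72 (adjusted p = 0.00299).

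In heads, per exonic length, Stat92E was the highest of the 8 genes in all 4 groups, followed by Socs36E and dome. The kinase gene hop came next in every group except day 40 orco2, and in day 3 orco2 it overlapped et. The gene et stood at 3.44 ± 0.0509 CPM per 1000 exonic bases in day 3 w1118 heads (SD, n = 2) and at 9.78 ± 0.0735 in day 40 orco2 heads, where it stood above hop (6.92 ± 0.555) without overlap. The ligands were lowest in every head group, at 0.436 or less.

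The genes whose levels followed Socs36E most closely over the 9 gut libraries were kis (Pearson r of log2 CPM = 0.992), rhea (0.988) and Sox14 (0.988), among 9472 genes with a mean of at least 5 CPM. Those closest to upd3 were CG32369 (0.959), fus (0.953) and Msp300 (0.949). Over the 8 head libraries, Socs36E was followed most closely by Pi3K68D (0.992), CG5065 (0.982) and NFAT (0.978), and upd3 by rod (0.920), lncRNA:CR43459 (0.918) and CG8765 (0.905), among 8169 genes. The libraries share their groups, so these values describe a common pattern over groups. Among the 8 genes themselves, Socs36E and upd3 had r = 0.93 over the gut libraries and Socs36E and hop 0.92, whereas Socs36E and upd1 had -0.26. In heads, Socs36E and Stat92E ran opposite ways (r = -0.84 over 8 libraries), and Stat92E and et ran together (0.85).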

How the data were processed

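Per the submitters' processing notes, the authors trimmed reads with fastp, aligned them to dm6 with HISAT2 and counted them with featureCounts, and DESeq2 is also named there. The deposited values are whole-number counts per gene without normalization. Versions, annotation and settings for strand and multiple hits are not given in the sources used here. Guts and heads were normalized (TMM) and fitted separately in edgeR 4.0.16 (R 4.3.3) with a quasi-likelihood model of group means over every library of the tissue. Genes had to pass filterByExpr at a minimum count of 10, which left 13453 in guts and 12243 in heads, and Benjamini-Hochberg adjustment ran over these genes, with calls made under 0.05. The procedure was tested on simulated data. Names, coordinates and exonic lengths came from the BDGP6 annotation, and intervals for fold changes are 95% intervals of the model.

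All members and lists were chosen with earlier results of these data known. Named were the 8 members, each regulator past the threshold, up to 4 genes of every other list by smallest p, and the 3 genes closest to Socs36E and to upd3 by correlation. The genes aly, bgcn, Mst87F, Acp36DE and alphaTry, and Mmp1 in orco2 and puc in per01, were named after their values were seen. The 14 lists hold 134 entries, of which 130 matched in both tables. Alternatives were size factors from DESeq2, all genes with counts, DESeq2 1.42.0, limma-voom (limma 3.58.1), fits of only the groups compared, a replicate block, and leaving out each library. A single library left in a head group is taken to scatter as the remaining groups do.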

Additional observations from a re-analysis of the deposited data

Results flagged for a closer look

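Stat92E at day 40 ran opposite ways in the tissues of orco2 flies. In guts all 3 orco2 libraries lay below all 3 w1118 libraries, with a log2 fold change of -1.03 ± 0.36 (adjusted p = 0.0634), and in heads both orco2 libraries lay above both w1118 libraries, with 0.67 ± 0.12 (adjusted p = 0.0118). The gut value minus the head value is -1.70 on the log2 scale. That difference was not tested, since the tables of guts and heads were scaled and fitted separately, and the gut value by itself did not pass the threshold.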

How the results depend on the processing

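No gene of the 8 that passed in a comparison had the other sign under an alternative, and upd3 and Socs36E passed in both mutants' guts under all 15 alternatives each. Of 874 alternative values of the 59 fold changes, 47 had the other sign, 45 lost and 36 gained the threshold, and except as stated the cause was not tested. With DESeq2's test 6 genes passed in orco2 guts, Stat92E among them, 5 in per01 against w1118 guts, 1 in per01 against orco2, 2 in orco2 heads at day 3, 2 at day 40 and 1 with age in orco2. That test called 48.4%, 32.5%, 34%, 12.3%, 18.8% and 29.7% of all genes in the same order. With only the libraries compared, which changes the number of samples behind the spread, the counts were 1 (per01 against orco2), 0 (day 3), 3 (day 40) and 2 (age in w1118). Of all genes, 18%, 3.02%, 27.1% and 33.1% were called in the same order. Without a count filter 2 passed at day 3 and 1 with age in orco2, where 7.35% and 17.9% of all genes were called. DESeq2 size factors and limma-voom also gave 1 for age in orco2, where they called 24.4% and 25.1% of all genes. The fit without both head libraries that held gut trypsin transcripts leaves a single library of day 3 orco2 and of day 40 w1118, so its calls among the 8 genes are not listed.

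Correlations of same-numbered deviations ran from -0.402 to 0.151 in guts and from -0.317 to 0.020 in heads, and no pairing by replicate number was seen. The deviations of 2 libraries in a head group mirror each other, so this check cannot exclude a pairing. With a replicate block 3 of 8 passed in orco2 guts and 1 with age in orco2 heads, Stat92E in per01 against w1118 was 0.040 and upd2 in per01 against orco2 was -0.297. Blocked, all-gene counts were 2070 (3573 without the block), 1294 (2554) and 42 (726) in the gut comparisons, and 2600 (2968) with age in orco2 heads.

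Other reversals came with small values or few counts. In per01 against orco2, DESeq2 size factors and DESeq2's test both gave -0.034 for dome and -0.002 for Socs36E, and limma-voom gave -1.075 for upd2 and, in per01 against w1118, 0.051 for Stat92E. For hop with age in w1118 heads no filter gave 0.005. Without both head libraries the values were -4.543 (upd2) and -5.268 (upd3) at day 3, 0.102 for hop with age in w1118, 5.469 (upd3) and 0.193 (hop) with age in orco2, and 3.572 (upd2), 2.598 (upd3) and 0.091 (hop) for the difference between age effects.

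Leaving out single libraries gave 2 to 6 genes passing in orco2 guts, 2 to 4 in per01 guts, 0 to 2 in per01 against orco2, 0 to 3 in orco2 heads at either age, 0 to 1 with age in w1118 and 0 to 2 in orco2. The same fits called 590 to 5603, 973 to 2937 and 19 to 5211 of all genes in the gut comparisons, 278 to 3246 and 319 to 3552 in orco2 heads at day 3 and day 40, and 447 to 3698 and 771 to 4500 with age in w1118 and orco2. Signs turned within -2.223 to 0.376 (upd1) and -0.322 to 0.459 (Stat92E) in per01 against w1118. In per01 against orco2 they turned within -5.167 to 0.985 (upd2), -0.676 to 0.155 (upd3), -0.007 to 0.188 (dome) and -0.321 to 0.126 (et). In heads at day 3 the ranges were -4.569 to 2.516 (upd2), -5.295 to 6.556 (upd3) and -0.439 to 0.063 (hop), and for hop with age in w1118 -0.114 to 0.104. With age in orco2 they were -0.730 to 6.335 (upd2), -6.582 to 5.495 (upd3), -0.060 to 0.159 (dome) and -0.290 to 0.194 (hop). For the difference between age effects they were -3.160 to 3.881 (upd2), -9.201 to 2.876 (upd3), -0.263 to 0.196 (hop) and -0.404 to 0.278 (et).

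Over all genes, DESeq2's test called 6506 (orco2 against w1118), 4376 (per01 against w1118) and 4573 (per01 against orco2), limma-voom 5881 in orco2 against w1118 and 3737 in per01 against orco2, and fits of only the libraries compared 5477, 1405 and 2331 in the same order. The latter moved the median of all genes in per01 against w1118 to -0.18. In heads, calls moved from 891 to 1354 (no filter), 1506 (DESeq2), 347 (only the libraries compared) and 3817 (both libraries left out) at day 3, from 1586 to 3113 (only the libraries compared) and 3580 (both left out) at day 40, and from 1933 to 3816 and 2968 to 1249 with age in w1118 and orco2 under only the libraries compared. The 1 gene of the difference between age effects became 176, 186 and 614 with no filter, DESeq2 and both libraries left out. Low counts limit all statements on ligands in heads.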

Other observations

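Markers of other tissues were also read in guts. Summed CPM of 8 enteroendocrine genes were 33.2 to 370.7 in w1118, 197.2 to 247.4 in orco2 and 663.6 to 1232 in per01. Those of 10 fat body genes were 482 to 1131, 628.2 to 944.9 and 301.2 to 459.5, and those of 6 Malpighian tubule genes were 1195 to 3252, 1546 to 2399 and 1971 to 3689. Transcripts of 6 neuron genes summed to 41.7 to 119.1, 28.9 to 31.7 and 23.6 to 44.9 CPM, those of 6 photoreceptor genes to 57.8 to 164, 42.1 to 47.9 and 35.8 to 44.8 CPM, and those of 5 glial genes to 691.5 to 1456, 382.6 to 504.6 and 642.6 to 1223 CPM. Acp36DE, an accessory gland gene, was read at 2200, 84 and 2213 counts in w1118 guts, at 110505, 148947 and 144986 in orco2 and at 84045, 146375 and 4585 in per01.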
